A study of Caenorhabditis elegans with 24 samples.

Results

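The 7 genes described here encode the *C. elegans* counterparts of the amyloid precursor protein pathway: *apl-1*, *feh-1*, *sel-12*, *hop-1*, *aph-2*, *aph-1* and *pen-2*. They were chosen by name, as the amyloid precursor-related gene, the Fe65 gene and the presenilin and gamma-secretase subunit genes, out of 20191 genes measured, and all 7 were among the 12771 genes that passed the filter on low values (at least 0.5 RPKM in at least 4 libraries). RPKM, the unit of all levels, corrects read numbers for exon length and for library depth. It leaves differences in the make-up of the RNA between libraries uncorrected, so small differences between libraries also depend on the scaling. Scaling factors by a trimmed mean ran from 0.962 to 1.06 over the libraries. The 24 libraries came from whole worms collected on day 3, pooled within a condition, that were fed bacteria with the empty vector pL4440 from the egg on. The groups were *abl-1* KO on 100 µM quercetin (n = 5), untreated *abl-1* KO (n = 5), wt on 100 µM quercetin (n = 5), wt on 100 µM lutein (n = 4) and untreated wt (n = 5), and untreated worms received the solvent of DMSO and Tween 80 alone. Quercetin is a plant flavonol and lutein a plant carotenoid. ABL-1 is the worm's Abl tyrosine kinase, and the comparisons ask whether quercetin and loss of *abl-1* act on the same genes. Both strains were offspring of the same cross between XR1, the source of the *abl-1* (*ok171*) deletion, and GRU102, a model with human Aβ in neurons; by the labels neither NV48 (wt) nor NV50 (*abl-1* KO) is listed with the Aβ transgene, although the methods of the study name NV51 in place of NV50 for the sequenced worms and there call NV48 the Aβ model. Each genotype was a single strain, so other differences between these strains and the loss of *abl-1* cannot be told apart.

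In mammals, the amyloid precursor protein (APP) is first cut outside the membrane and then, within the membrane, by gamma-secretase, a complex of presenilin, nicastrin, APH-1 and PEN-2 that also releases the intracellular part of Notch receptors. APL-1 is the worm's only APP-related protein, lacks the Aβ sequence, is made in neurons, hypodermis and muscle, and is needed for molting and survival of larvae. FEH-1 is the worm's Fe65, an adaptor that binds the cytoplasmic tail of APL-1. SEL-12 and HOP-1 are presenilins, the catalytic subunit, and share roles in LIN-12 and GLP-1 Notch signalling, while APH-2 is the worm nicastrin.

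The libraries differed in ways that the groups do not explain. The deposited values hold no read totals, and steps between low values gave an estimated 27.06 to 45.15 M mapped reads per library. The *abl-1* transcript was at 1.71 to 2.15 RPKM in the *abl-1* KO libraries and at 6.85 to 7.77 RPKM in the wt libraries, so every library labelled *abl-1* KO was below every wt library. Sperm RNA was high in 5 libraries, with summed major sperm protein levels of 336, 282 and 206 RPKM in *abl-1* KO quercetin 2, 3 and 5, 471 RPKM in untreated *abl-1* KO 2 and 256 RPKM in wt quercetin 4, against 3.47 to 126 RPKM in the others. Most of the group of *abl-1* KO on quercetin was thus rich in sperm RNA. With the sperm score of each library as a covariate 0 of the 7 genes were called in any comparison. Without the covariate the number was also 0, so the count of calls cannot show whether sperm RNA bears on the 7 genes. Libraries with the same replicate number deviated together in part: *apl-1* was above the group mean in 5 of 5 libraries numbered 1 and in 0 of 5 numbered 3 and 0 of 5 numbered 4. The methods of the study give 5 biological replicates per condition (wt on lutein has 4 libraries here). The labels do not say what a number marks or that replicates came from separate cultures, so p-values measure the spread between these pools only.

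In whole day 3 worms the gamma-secretase genes and *apl-1* were expressed at similar middle levels, and *feh-1* was much lower. Averaged over the 24 libraries, *pen-2* was at 40.02 RPKM, *hop-1* at 37.5, *aph-1* at 33.8, *apl-1* at 32.8, *aph-2* at 27.2, *sel-12* at 14.5 and *feh-1* at 0.947. These levels lay between the 54.6th percentile (*sel-12*) and the 73.2nd percentile (*pen-2*) of the tested genes, except for *feh-1* at the 15.5th. In that order, *pen-2* exceeded *hop-1* in 21 of 24 libraries, by 1.07-fold on average, and the mean of their log2 ratio was below its spread between libraries (0.09 ± 0.12, SD over 24 libraries). *aph-1* and *apl-1* also differed by less than that spread (*aph-1* higher in 14 of 24 libraries, log2 ratio 0.05 ± 0.13). *hop-1* was above *aph-1* in 21 of 24 libraries (1.11-fold, log2 ratio 0.15 ± 0.12), *apl-1* above *aph-2* in 23 of 24 (log2 ratio 0.26 ± 0.15), and *aph-2* above *sel-12* in 24 of 24 (1.87-fold). The presenilins were unequal in every library, with *hop-1* at 2.58 times the level of *sel-12* per length. *sel-12* was also above *feh-1* in 24 of 24 libraries, by 15.7-fold.

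**Figure D1:**
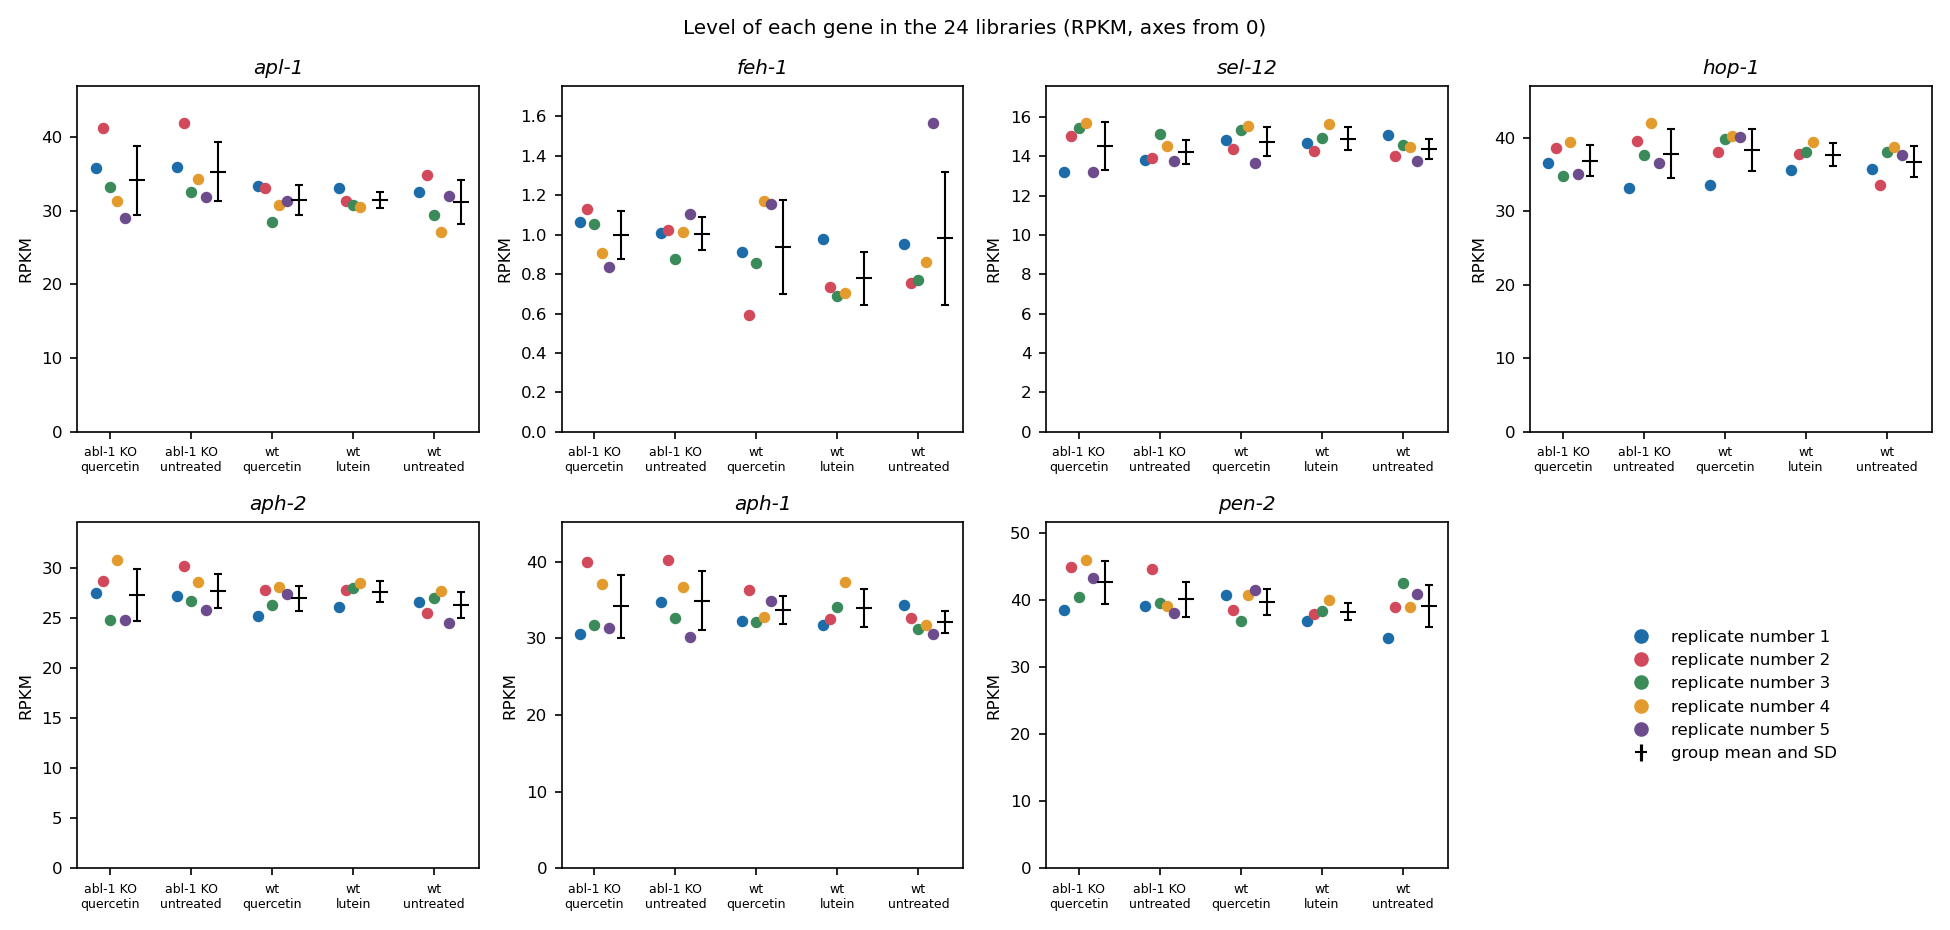
Level of each of the 7 genes in RPKM (vertical axes, from 0) in the 24 libraries, by group; points are libraries coloured by replicate number, and the black bar is the group mean with its SD. The groups overlap for every gene, and the highest *apl-1* values are the *abl-1* KO libraries numbered 2 (41.3 and 41.9 RPKM).

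On the genome (WBcel235) the genes are spread over 3 chromosomes. *apl-1* (WBGene00000149) lies on the minus strand of chromosome X at 5112422 to 5116866 and *sel-12* (WBGene00004769) on the plus strand of X at 915867 to 918290. *feh-1* (WBGene00001410) lies on chromosome III at 2549920 to 2560684 and *pen-2* (WBGene00003975) on III at 11343322 to 11344147, both on the plus strand. Chromosome I carries *hop-1* (WBGene00001985, minus strand, 4208515 to 4210341), *aph-1* (WBGene00000147, minus strand, 9232068 to 9233560) and *aph-2* (WBGene00000148, plus strand, 10340997 to 10345654). Their exons span 483 bases in *pen-2* and 2741 bases in *apl-1*, with *feh-1* (2295), *aph-2* (2384), *sel-12* (1473), *hop-1* (1155) and *aph-1* (1104) in between. In 4 of the 7 genes a few exonic bases are shared with a gene on the opposite strand: 48 bases of *pen-2* (9.94% of its exons) with *T28D6.7*, 29 of *aph-1* with *gip-2*, 18 of *hop-1* with *C18E3.3* and 5 of *apl-1* with *C42D8.1*. The library kit keeps strand, but the strand setting of the counting is not given in the sources used here, so reads over these bases may count for either gene.

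None of the 7 genes passed the test in any comparison. In limma on log2(RPKM + 0.5), 0 of 49 tests (7 genes in 7 comparisons) had an adjusted p of at most 0.05, and 1 reached an unadjusted p of 0.05 or less. Among all 12771 genes, the share called by the same rule was 0.478% for *abl-1* KO against wt untreated and 0.485% for *abl-1* KO against wt on quercetin (61 and 62 genes, or 466 and 252 with the replicate number as a block). In these strain comparisons 11.1% and 8.18% of all genes had an unadjusted p of 0.05 or less, and the 1 such value among the 7 genes was that of *apl-1* in the untreated one. The share called was 0% for quercetin against untreated wt, for quercetin against untreated *abl-1* KO, for lutein against untreated wt, for quercetin against lutein and for the strain difference in the response to quercetin. In these 5 comparisons 173, 233, 209, 179 and 203 genes, in the same order, reached an unadjusted p of 0.05 or less. In the exact permutation tests of single genes (2 groups at a time, two-sided) the smallest of 42 p-values was 0.111, where 0.00794 is the smallest that 5 libraries against 5 allow and 0.0159 the smallest for 4 against 5. In 0 of the 42 were the groups separate. Comparisons with a group in common share its libraries and are not independent of each other.

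The gene with the largest difference between the strains was *apl-1*. It was at 35.996, 41.9, 32.6, 34.3 and 31.9 RPKM in untreated *abl-1* KO worms (numbers 1 to 5, as in all such lists), against 32.6, 34.9, 29.4, 27.1 and 32.0 RPKM in untreated wt worms. The *abl-1* KO value was the higher in 4 of 5 numbers, and 2 of the 5 *abl-1* KO libraries lay above every wt library. The means were 35.3 ± 4.01 RPKM in *abl-1* KO and 31.2 ± 3.01 RPKM in wt (SD, n = 5 each). The log2 fold change was 0.18 (SE 0.08, 95% interval 0.00 to 0.35). limma gave an unadjusted p of 0.0457 and an adjusted p of 0.444, and the exact permutation p was 0.111. With the replicate number as a block the log2 fold change was the same. limma then gave an unadjusted p of 0.00525 and an adjusted p of 0.0849, which was still not called. Without untreated *abl-1* KO 2, which holds the highest *apl-1* level of all 24 libraries, the log2 fold change was 0.11.

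In the same comparison most marker lists also had higher means in untreated *abl-1* KO than in untreated wt, as 62.2% of all genes did, with 0 markers called. This held for 12 of 13 neuron markers (median log2 fold change 0.11; 11 after rescaling by a trimmed mean), whose summed level was 253 to 294 RPKM in *abl-1* KO and 245 to 272 RPKM in wt. It held for 10 of 10 muscle markers (median 0.10; 9 after rescaling), with sums of 1965 to 2531 RPKM in *abl-1* KO and 1904 to 2350 RPKM in wt. For seam and hypodermis, where *apl-1* is also made, it held for 5 of 6 markers (median 0.10, sums of 101 to 109 RPKM in *abl-1* KO and 94.5 to 105 RPKM in wt), and for the intestine for 5 of 7 (median 0.08; 4 after rescaling). Whether the strain difference of *apl-1* comes from any of these tissues was not tested. The sperm markers had the highest median, 0.77, with 22 of 22 higher and sums of 9.60 to 473 RPKM in *abl-1* KO and 3.56 to 85.4 RPKM in wt, and 9 of 12 molting genes were higher (median 0.26). Of 12 germline and oocyte markers 10 had lower means (median -0.03; 12 after rescaling), with sums of 3734 to 4144 RPKM in *abl-1* KO and 3964 to 4187 RPKM in wt. With the sperm score as a covariate the log2 fold change of *apl-1* was 0.14. With the neuron score of each library as a covariate, an alternative chosen after seeing the data, the log2 fold change of *apl-1* was 0.06. In RNA from whole worms, fewer cells of a type and less RNA per cell cannot be told apart.

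On quercetin *apl-1* was at 35.9, 41.3, 33.3, 31.3 and 29.0 RPKM in *abl-1* KO and at 33.4, 33.2, 28.4, 30.8 and 31.3 RPKM in wt. These groups overlapped widely (log2 fold change 0.11, 95% interval -0.06 to 0.28, limma adjusted p 0.737), and without *abl-1* KO quercetin 2 the log2 fold change was 0.04. Quercetin itself moved *apl-1* little in either strain, with a log2 fold change against untreated worms of -0.05 in *abl-1* KO (95% interval -0.22 to 0.12) and 0.01 in wt (95% interval -0.16 to 0.18). Lutein-fed wt worms had 33.0, 31.3, 30.8 and 30.5 RPKM, the narrowest group for this gene, and the log2 fold change against untreated wt was 0.02 (95% interval -0.17 to 0.20).

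*feh-1* was the least precisely measured gene. It was at 1.06, 1.13, 1.06, 0.906 and 0.837 RPKM in *abl-1* KO on quercetin and at 1.01, 1.02, 0.877, 1.01 and 1.11 RPKM in untreated *abl-1* KO. In wt it was at 0.913, 0.594, 0.857, 1.17 and 1.15 RPKM on quercetin, at 0.980, 0.737, 0.691 and 0.706 RPKM on lutein, and at 0.950, 0.754, 0.771, 0.863 and 1.57 RPKM untreated. The spread was thus wider in wt, where untreated wt 5 stood far above the rest. These levels correspond to an estimated 46.4 to 115 reads per library, for which counting error alone gives a coefficient of variation of 11.9%, against 19.5% found within groups. The estimates cover counting error only.

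The largest difference of any gene and comparison was that of *feh-1* on lutein, with 0.778 ± 0.136 RPKM (SD, n = 4) against 0.981 ± 0.336 RPKM in untreated wt (SD, n = 5), a log2 fold change of -0.19 (95% interval -0.47 to 0.09). The limma adjusted p was 1 and the exact permutation p was 0.286. Without untreated wt 5 the log2 fold change was -0.07, so that its place as the largest rested on that library. For quercetin against untreated wt the log2 fold change was -0.03 (95% interval -0.30 to 0.23), and it was 0.09 without untreated wt 5 and 0.06 without wt quercetin 2. For *abl-1* KO against wt untreated it was 0.05 (95% interval -0.22 to 0.31), and 0.17 without untreated wt 5, -0.01 without untreated wt 2 and -0.0008 without untreated wt 3. The direction of the quercetin and strain differences thus changed with the libraries included, while that on lutein was negative without any single library.

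Of the presenilin genes *sel-12* was the steadier, with a within-group SD of 0.08 on the log2 scale against 0.10 for *hop-1*. *sel-12* varied by 1.19-fold between its lowest and highest library, and its spread within groups was at the 22.9th percentile of the 704 genes within 1.2-fold of its level. It averaged 14.5 ± 1.21 RPKM in *abl-1* KO on quercetin, 14.2 ± 0.600 in untreated *abl-1* KO, 14.8 ± 0.755 in wt on quercetin, 14.9 ± 0.585 in wt on lutein and 14.4 ± 0.507 in untreated wt (SD, n = 5, 5, 5, 4 and 5). Its 95% intervals were the narrowest, from -0.07 to 0.14 for quercetin against untreated wt and from -0.12 to 0.09 for *abl-1* KO against wt untreated, both on the log2 scale. *hop-1* averaged 36.9 ± 2.09 RPKM in *abl-1* KO on quercetin, 37.8 ± 3.32 in untreated *abl-1* KO, 38.4 ± 2.85 in wt on quercetin, 37.7 ± 1.57 in wt on lutein and 36.8 ± 2.09 in untreated wt. Its log2 fold changes lay between -0.05 and 0.06 in the pairwise comparisons. The balance of the presenilins was also similar across groups: the ratio of *sel-12* to *hop-1* averaged 0.394 and 0.378 in *abl-1* KO with and without quercetin, 0.387 and 0.395 in wt on quercetin and lutein, and 0.392 in untreated wt, within a range of 0.341 to 0.444 over the libraries.

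*aph-2*, the nicastrin gene, was at 27.5, 28.8, 24.9, 30.9 and 24.8 RPKM in *abl-1* KO on quercetin and at 27.2, 30.3, 26.8, 28.6 and 25.9 RPKM in untreated *abl-1* KO. In wt it was at 25.2, 27.8, 26.3, 28.2 and 27.4 RPKM on quercetin, at 26.2, 27.8, 28.1 and 28.6 RPKM on lutein and at 26.7, 25.6, 27.1, 27.7 and 24.5 RPKM untreated. No group stood apart, and *abl-1* KO on quercetin alone spanned nearly the whole range of the gene. For *abl-1* KO against wt untreated the log2 fold change was 0.07 (95% interval -0.04 to 0.19), and for lutein against untreated wt it was also 0.07 (95% interval -0.05 to 0.19).

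*aph-1*, a scaffold subunit of the complex, was at 30.6, 39.9, 31.8, 37.1 and 31.4 RPKM in *abl-1* KO on quercetin and at 34.7, 40.3, 32.7, 36.7 and 30.2 RPKM in untreated *abl-1* KO. It was at 32.3, 36.3, 32.2, 32.8 and 34.8 RPKM in wt on quercetin, at 31.8, 32.6, 34.1 and 37.3 RPKM in wt on lutein and at 34.3, 32.7, 31.2, 31.8 and 30.6 RPKM in untreated wt. The *abl-1* KO libraries numbered 2 and 4 were the highest of their groups in both treatments. The log2 fold change of *abl-1* KO against wt was 0.11 untreated (95% interval -0.04 to 0.26, exact permutation p = 0.190) and 0.01 on quercetin (95% interval -0.14 to 0.16), and the second turned to -0.04 without the *abl-1* KO libraries numbered 2.

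*pen-2*, which in mammals is needed for presenilin to be cut into its active form, was at 38.5, 44.9, 40.4, 46.0 and 43.3 RPKM in *abl-1* KO on quercetin, against 39.1, 44.7, 39.6, 39.1 and 38.1 RPKM in untreated *abl-1* KO. It was at 40.7, 38.5, 36.9, 40.8 and 41.5 RPKM in wt on quercetin, at 36.9, 37.9, 38.3 and 39.95 RPKM in wt on lutein and at 34.3, 38.9, 42.5, 38.9 and 40.9 RPKM in untreated wt. The group of *abl-1* KO on quercetin had the highest mean, 42.6 ± 3.15 RPKM, against 40.1 ± 2.61 RPKM in untreated *abl-1* KO and 39.7 ± 1.94 RPKM in wt on quercetin (SD, n = 5 each), and 3 of its 5 libraries lay above every wt quercetin library. The log2 fold change was 0.09 against untreated *abl-1* KO (95% interval -0.03 to 0.20, limma adjusted p 1) and 0.10 against wt on quercetin (95% interval -0.02 to 0.22, limma adjusted p 0.673). The quercetin effect on *pen-2* was not shown to differ between the strains (difference 0.06 on the log2 scale, 95% interval -0.10 to 0.23).

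**Figure D2:**
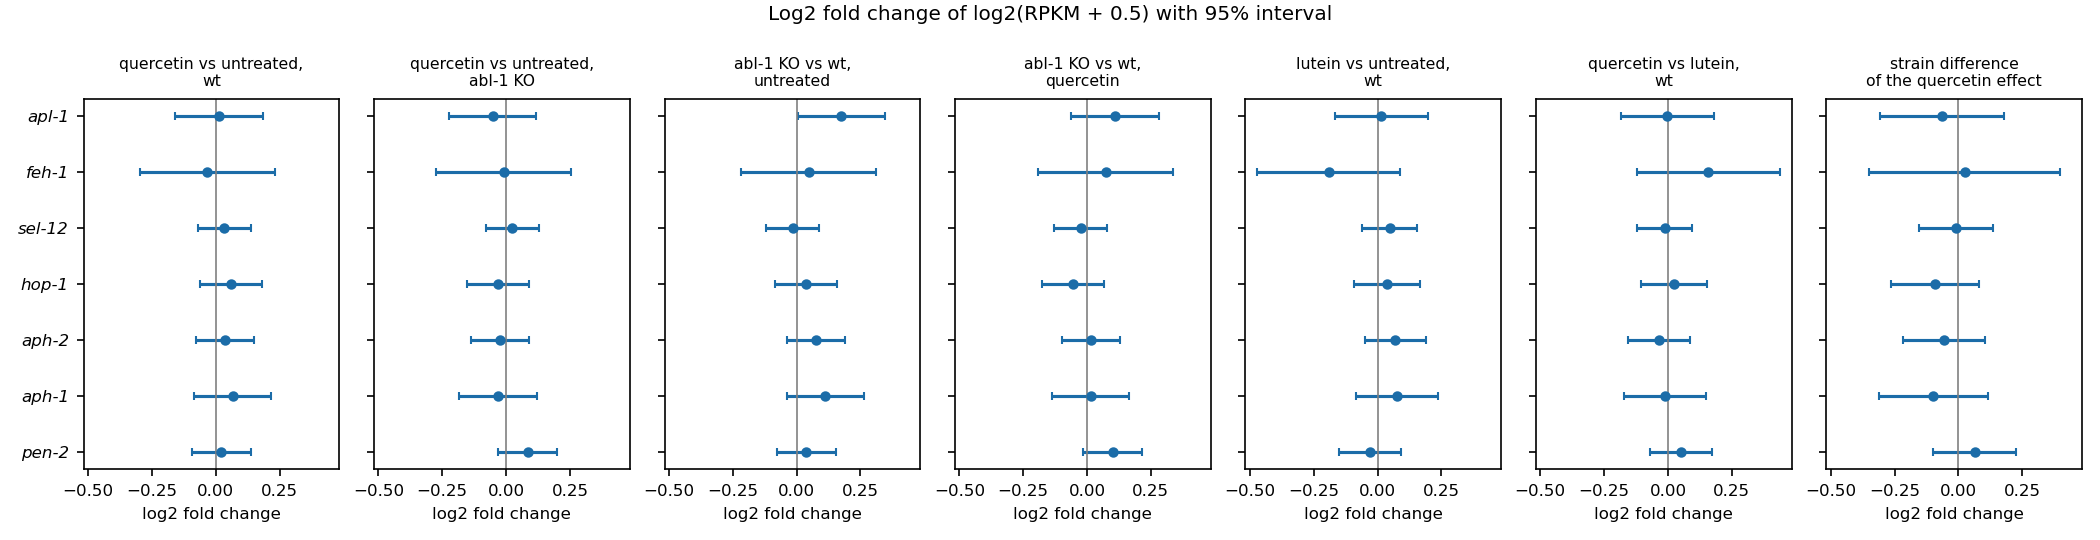
Log2 fold change of each gene (horizontal axes, log2(RPKM + 0.5) scale) with its 95% interval from the fit over all genes, for the 7 comparisons; the last panel is the quercetin effect in *abl-1* KO minus that in wt. Of the 49 intervals, that of *apl-1* for *abl-1* KO against wt untreated alone leaves out 0 (0.00 to 0.35 after rounding), and those of *feh-1* are the widest.

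Taken gene by gene, the 95% intervals limited the size of a change for all genes but *feh-1*, whose intervals were wider. Leaving out *feh-1*, the 95% intervals of the other 6 genes together spanned 0.896-fold to 1.16-fold for quercetin against untreated wt, 0.891-fold to 1.18-fold for lutein against untreated wt and 0.880-fold to 1.13-fold for quercetin against lutein, the pair of compounds tested at the same dose and time. They spanned 0.856-fold to 1.15-fold for quercetin against untreated *abl-1* KO, and 0.921-fold to 1.27-fold for *abl-1* KO against wt untreated. For *abl-1* KO against wt on quercetin they spanned 0.885-fold to 1.215-fold. The strain difference in the response to quercetin was the least limited on the low side, at 0.805-fold to 1.17-fold. In untreated worms 6 of 7 genes had a higher mean in *abl-1* KO than in wt (median log2 fold change 0.05), but 62.2% of all tested genes did so too (median 0.03). After rescaling by a trimmed mean these shares were 4 of 7 genes and 46.9%, with *hop-1* and *pen-2* on the other side of 0. On quercetin in wt 6 of 7 genes were above 0 (median 0.03), against 54.1% of all genes, and on quercetin in *abl-1* KO 2 of 7 (median -0.02), against 47.1%. On lutein 5 of 7 were above 0 (median 0.04), against 57.1% of all genes.

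Of 39 related genes in 6 lists, which act before, beside or after gamma-secretase, 35 passed the filter. Of these, 0 were called in any comparison, where at most 0.485% of all genes were called. Of the presenilin-like proteases, which belong to the same family of aspartyl proteases that cut within membranes, *imp-2* was at 148 RPKM and *imp-1* at 107 RPKM over all libraries, while *spe-4*, a presenilin relative of spermatocytes, was at 0.248 RPKM. Among Notch ligands, 6 of 7 passed the filter, led by *osm-11* (154 RPKM) and *apx-1* (56.3 RPKM). The germline Notch receptor gene *glp-1* was at 63.9 RPKM and *lin-12*, the somatic receptor gene, at 2.25 RPKM, and *sup-17*, the ADAM10 homologue that cuts Notch before gamma-secretase does, at 77.5 RPKM. None of the 4 receptor and sheddase genes differed by more than 0.07 on the log2 scale in a pairwise comparison.

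Among 8 genes of the Notch nuclear complex, its turnover and its targets, 2 reached an unadjusted p of 0.05 or less for *abl-1* KO against wt untreated, as did 11.1% of all genes. *ref-1*, a bHLH target of Notch in the embryo, averaged 5.84 ± 0.692 RPKM in *abl-1* KO and 7.05 ± 0.680 RPKM in wt (SD, n = 5 each; log2 fold change -0.26, SE 0.08, limma adjusted p 0.226). *sygl-1*, a GLP-1 target that keeps germline stem cells, averaged 148 ± 9.22 RPKM in *abl-1* KO and 158 ± 10.6 RPKM in wt (log2 fold change -0.10, limma adjusted p 0.451). The other GLP-1 target of stem cells, *lst-1*, had its smallest p on lutein, with 89.2 ± 2.84 RPKM (n = 4) against 84.1 ± 2.84 RPKM in untreated wt (n = 5; limma adjusted p 1). Of 10 homologues of APP adaptors and transport factors, *jip-1*, a scaffold that binds APP in mammals, was at 1.34 ± 0.161 RPKM in untreated *abl-1* KO and 1.64 ± 0.177 RPKM in untreated wt (limma adjusted p 0.415). Of the amyloid-degrading enzyme homologues, *F44E7.4* had the smallest p, for *abl-1* KO against wt on quercetin (127 ± 3.51 against 134 ± 5.32 RPKM, limma unadjusted p 0.0384, adjusted p 0.572). In that comparison 8.18% of all genes had an unadjusted p of 0.05 or less. The neprilysin gene *nep-2* was at 5.45 ± 0.272 RPKM in untreated *abl-1* KO and 4.72 ± 0.713 RPKM in untreated wt (limma adjusted p 0.509). *nep-1* was at 13.9 ± 0.462 RPKM in untreated *abl-1* KO and 14.9 ± 1.05 RPKM in untreated wt (limma adjusted p 0.452).

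Between the libraries of a group, *apl-1* varied more than most genes of its level. Among the 6 marker lists compared, it did so together with markers of neurons and muscle. Its spread within groups (SD 0.14 on the log2 scale) was at the 89.1st percentile of the 1048 genes within 1.2-fold of its level, whose median was 0.07. A high spread was not limited to *apl-1*. Against genes of their own level, *aph-1*, *hop-1* and *pen-2* were at the 86.04th, 77.05th and 74.39th percentiles. *aph-2*, *feh-1* and *sel-12* were lower, at the 59.42nd, 34.29th and 22.87th. Over the 24 libraries, after subtraction of group means, the deviation of *apl-1* followed the neuron marker score with r = 0.893 and rho = 0.901 (permutation p = 1e-05 for each, the smallest that 100000 permutations can give; adjusted p 0.00021 over 42 relations of 7 genes with 6 lists). It was 0.871 without the 2 libraries farthest from the median score and 0.774 when the means of the replicate numbers were removed as well. With the muscle marker score r was 0.797 and rho 0.859 (permutation p = 1e-05, adjusted p 0.00021), r was 0.824 without the 2 farthest libraries and 0.538 within numbers. With the germline and oocyte score r was -0.76 and rho -0.74 (permutation p = 4e-05 and 0.0001, adjusted p 0.00056 and 0.0014), and r without the 2 farthest libraries was -0.76. The intestine markers were not among the 6 lists, so whether *apl-1* also followed them was not tested.

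Part of these relations lay between replicate numbers. The *apl-1* relation with the germline and oocyte score was -0.278 within numbers, and libraries numbered 1 and 2 had, on average, higher *apl-1*, higher neuron and muscle scores and lower germline scores than the others. Permutation of all 24 libraries treats them as exchangeable, which libraries of the same number are not in full. The *apl-1* relations with the seam and hypodermis score (r = 0.516, permutation adjusted p 0.069) and the sperm score (r = 0.523, permutation adjusted p 0.069; 0.368 without the 2 farthest libraries) did not pass the adjustment, and that with the molting gene score was 0.079.

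**Figure D3:**
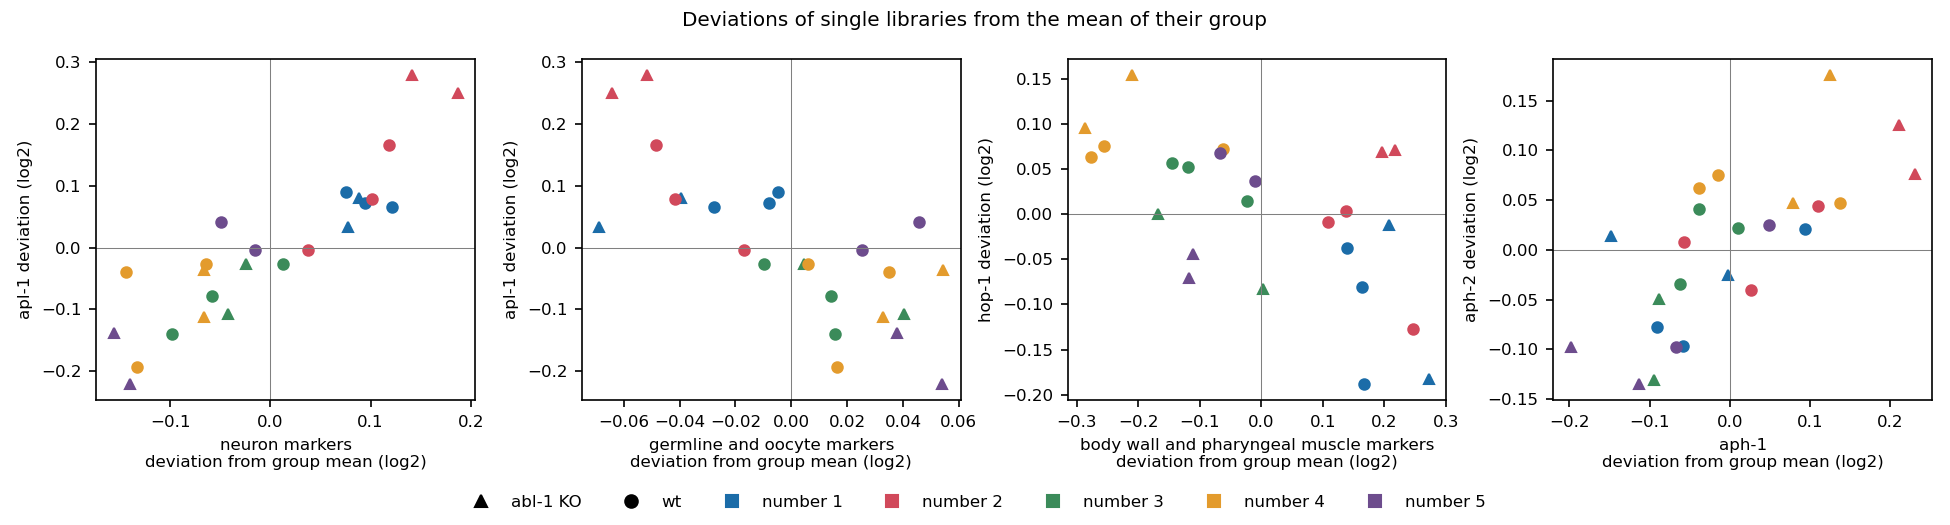
Deviation of single libraries from their group mean (log2 scale, both axes): *apl-1* against the neuron and the germline and oocyte marker scores, *hop-1* against the muscle score, and *aph-2* against *aph-1*; triangles are *abl-1* KO and circles wt libraries, coloured by replicate number. *apl-1* runs with the neuron score (r = 0.893) and against the germline score (r = -0.76), with numbers 1 and 2 at the high end for *apl-1*.

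The gamma-secretase genes showed another pattern in which genes they deviated with. *aph-1* and *aph-2* deviated together (r = 0.731, 0.686 without the 2 farthest libraries and 0.583 within numbers), as did *hop-1* and *aph-2* (r = 0.667, 0.702 and 0.698). *hop-1* with *aph-1* gave r = 0.416, and *aph-1* with *pen-2* r = 0.438. *sel-12* followed the other subunits weakly, with r between 0.061 and 0.315, and *feh-1* had r between -0.193 and 0.195 with the 6 genes. Within numbers, however, *feh-1* had r = 0.682 with *apl-1* and 0.359 with *hop-1*. *apl-1* and *aph-1* had r = 0.526, and 0.532 within numbers, but 0.209 without the 2 farthest libraries, which were the *abl-1* KO libraries numbered 2. These coefficients are given as a description over 24 libraries that share depth and replicate numbers.

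Against the marker lists, *hop-1* ran opposite to muscle (r = -0.59, rho = -0.562, permutation p = 0.0023 and 0.0051, adjusted p 0.025 and 0.053; r = -0.487 without the 2 farthest libraries). This relation did not hold within numbers (r = -0.183). Of the 42 relations 4 had an adjusted p of at most 0.05 for r, namely these and the 3 of *apl-1*, and no relation of *sel-12*, *aph-1*, *aph-2*, *pen-2* or *feh-1* did. *feh-1* was nearest with the molting gene score (r = 0.475, permutation adjusted p 0.13).

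**Figure D4:**
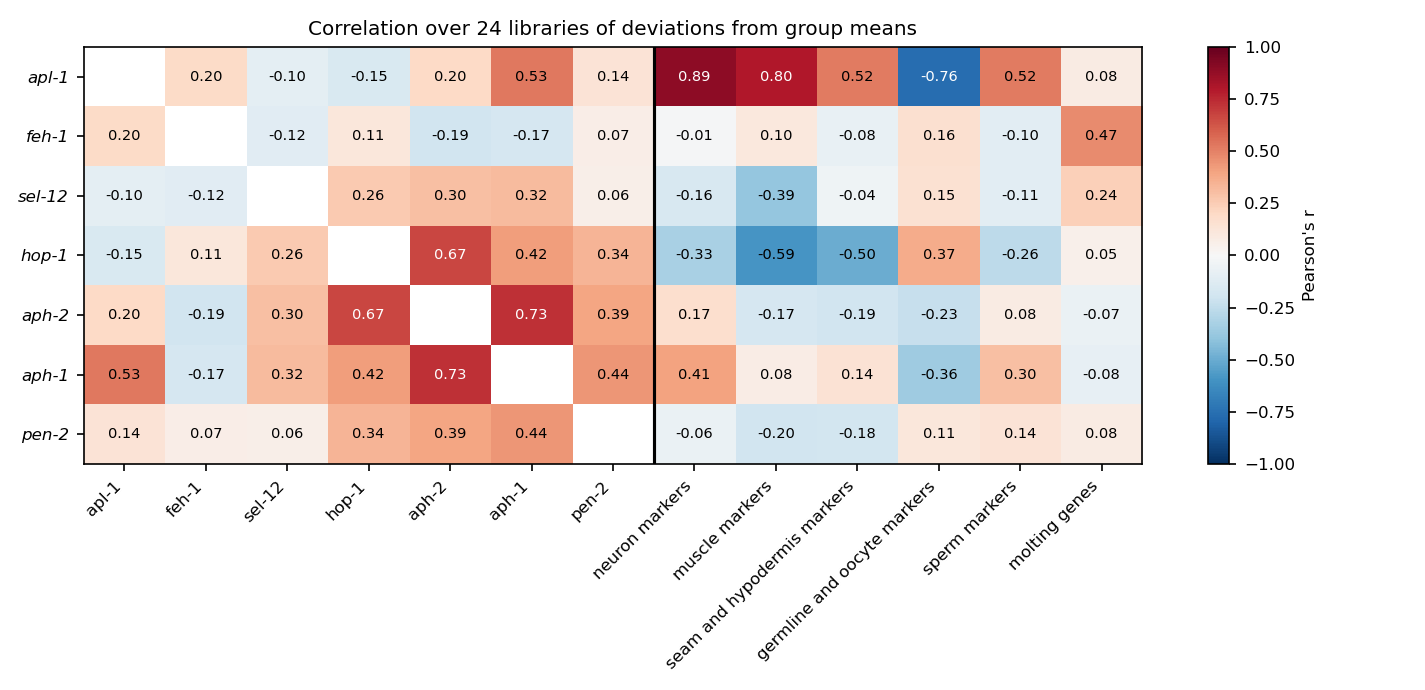
Pearson's r over 24 libraries of the deviations from group means, for each of the 7 genes (rows) with each other gene and with 6 marker list scores (columns, right of the line); red is positive and blue negative. The row of *apl-1* stands out against the lists (0.89 with neuron and -0.76 with germline and oocyte markers), and *aph-1*, *aph-2* and *hop-1* are joined to each other by r of 0.42 to 0.73.

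Among the 7731 tested genes with a mean of at least 5 RPKM, those with the deviations most like each gene were named by the highest r over the 24 libraries. For *aph-1* these were *mboa-2*, *tram-1*, which encodes a protein of the translocon of the endoplasmic reticulum, and *dylt-1* (r = 0.927, 0.923 and 0.918). For *aph-2* they were *R12C12.7*, *C18E9.2* and *ile-1*, a cargo lectin between the endoplasmic reticulum and the Golgi (r = 0.904, 0.883 and 0.883). For *hop-1* they were *mogs-1*, a glucosidase of N-glycan processing in the endoplasmic reticulum, the DNA repair gene *mre-11* and *pash-1* of microRNA processing (r = 0.903, 0.889 and 0.880). The coefficients of these 9 genes lay between 0.788 and 0.899 within numbers.

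For *apl-1* the nearest genes were *M60.4*, *ZK809.8* and *C24A3.2* (r = 0.944, 0.931 and 0.930; 0.897, 0.853 and 0.822 within numbers). The nearest genes of *sel-12* were *lmp-1*, a lysosomal membrane protein gene, *C18B2.4* and *fkh-4* (r = 0.745, 0.728 and 0.718), of which *fkh-4* was at 0.305 within numbers. *pen-2* was nearest to *vbh-1*, *F53E2.2* and *lin-41* (r = 0.766, 0.740 and 0.737). *feh-1* was nearest to *B0454.5*, the cuticle collagen gene *sqt-3* and the nuclear receptor gene *nhr-1* (r = 0.777, 0.727 and 0.707), and these fell to 0.569 to 0.634 without the 2 farthest libraries. The highest of so many coefficients is large by construction, and no test was made of them.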

How the data were processed

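RNA of pooled whole worms was sequenced as single reads from a stranded mRNA kit. Reads were demultiplexed with bcl2fastq 2.20.0.422, per the labels, and the authors trimmed them and used CLC Genomics Workbench for mapping to WBcel235. The deposited RPKM values are gene reads over exon length and over total mapped reads. How strand and reads with several matches were handled is not given in the sources used here. Depth, for which the values hold no totals, was estimated from steps between low values of the 18964 genes whose names matched the annotation (1227 did not); between 51.5% and 60.3% of low values then lay within 0.1 of a whole read, against 20% for random values.

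Log2(RPKM + 0.5) of the 12771 genes with at least 0.5 RPKM in at least 4 libraries was fitted as 5 groups with limma 3.58.1 (R 4.3.3, variance trend, two-sided, Benjamini-Hochberg over all these genes). A gene was called at an adjusted p of at most 0.05. A count model was not used, since RPKM are not counts. Members were also compared by exact permutation tests. List scores (mean log2 values) and summed levels took in all measured genes of a list, with no filter on low values. The molting score thus held 18 genes, of which 12 passed the filter, the sperm score 24 (22) and the seam and hypodermis score 8 (6). Scores of 6 lists, without that of the intestine markers, were related to members by 100000 permutations with group means removed. Genes named beside the members were the 3 with the smallest p in any comparison of each list, of which examples are printed, and the 3 most like each member. The members and lists were chosen with earlier results of these data known. The fit was tested on simulated data with independent noise in each library. These data held no effect of replicate numbers or of sperm RNA, so they do not show how the fit behaves with them.

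Alternatives were 2 other pseudocounts, no filter and a stricter filter, 2 rescalings, fewer libraries, no variance trend, a replicate block, covariates for sperm, molting and neuron scores, and leaving out libraries.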

Additional observations from a re-analysis of the deposited data

Results flagged for a closer look

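In 3 of 35 groups of 4 or 5 libraries a library lay far from the others of its group, where chance alone gives about 1 in 20 (1.75 expected). *feh-1* was at 1.57 RPKM in untreated wt 5, a gap to the nearest library of 0.758 of the group's range (critical value 0.71). *feh-1* was at 0.980 RPKM in wt lutein 1, with a gap of 0.841 of the range (critical value 0.829). *pen-2* was at 44.7 RPKM in untreated *abl-1* KO 2, with a gap of 0.777 of the range (critical value 0.71). This last library also held the highest *apl-1* and *aph-1* levels and the most sperm RNA of all 24 libraries, and the part of the sperm RNA in its *pen-2* level was not tested.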

How the results depend on the processing

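None of the 7 genes was called in any comparison under any of the 176 combinations of comparison and alternative, with adjusted p-values from 0.0849 upwards. The lowest belonged to *apl-1* for *abl-1* KO against wt untreated with a replicate block (unadjusted p 0.00525), where the adjusted p ranged up to 0.953 over the alternatives and the log2 fold change from 0.055 (neuron score as a covariate) to 0.22. The block raised the number of genes called among all 12771 to 466 for *abl-1* KO against wt untreated, from 61, and to 252 for *abl-1* KO against wt on quercetin, from 62. The numbers were not taken as pairs in the main fit or in the exact permutation tests. Same-numbered libraries correlated with r of -0.61 to 0.67 (median 0.32, over 0.1 in 37 of 46 pairs). For libraries of different numbers and groups the median was -0.07, and 15 of 24 libraries matched their own number best. The p-values of these tests thus leave out a structure that same-numbered libraries share in part. The stricter filter (a mean of at least 5 RPKM) left out *feh-1* and gives no value for it. Of 1225 recomputed log2 fold changes 88 changed sign, all of uncalled values of at most 0.102 in size, so the directions of small differences are not settled by these data; the causes were not tested. For *feh-1* counting error at this depth gives a coefficient of variation of 11.9%, against 19.5% within groups.

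After rescaling by the median of ratios, the values on the other side of 0 were, for *abl-1* KO against wt on quercetin -0.0082 for *aph-1* and -0.0054 for *aph-2*, for quercetin against lutein 0.0028 for *apl-1*, for the strain difference in the response to quercetin 0.0034 for *sel-12*. After rescaling by a trimmed mean, the values on the other side of 0 were, for *abl-1* KO against wt untreated -0.005 for *hop-1* and -0.0052 for *pen-2*, for *abl-1* KO against wt on quercetin -0.0122 for *aph-1* and -0.0094 for *aph-2*, for quercetin against lutein 0.0018 for *apl-1*, for the strain difference in the response to quercetin 0.0069 for *sel-12*. With the replicate number as a block, the values on the other side of 0 were, for lutein against untreated wt -0.0051 for *apl-1*, for quercetin against lutein 0.0175 for *apl-1*, 0.0077 for *sel-12* and 0.01 for *aph-1*. Without untreated *abl-1* KO 2 and wt quercetin 4, the values on the other side of 0 were, for quercetin against untreated *abl-1* KO 0.0094 for *apl-1*, 0.0206 for *aph-1* and 0.0089 for *aph-2*, for *abl-1* KO against wt untreated -0.0017 for *pen-2*, for quercetin against lutein 0.004 for *apl-1*, for the strain difference in the response to quercetin 0.0012 for *sel-12*. With the sperm score as a covariate, the values on the other side of 0 were, for quercetin against untreated wt -0.0273 for *apl-1*, for quercetin against untreated *abl-1* KO 0.0072 for *feh-1*, for *abl-1* KO against wt on quercetin -0.014 for *aph-1*. Without the *abl-1* KO libraries numbered 2 (chosen after seeing the data), the values on the other side of 0 were, for *abl-1* KO against wt untreated -0.0017 for *pen-2*, for *abl-1* KO against wt on quercetin -0.0441 for *aph-1* and -0.0028 for *aph-2*, for the strain difference in the response to quercetin -0.0024 for *feh-1*. With the neuron score as a covariate (chosen after seeing the data), the values on the other side of 0 were, for quercetin against untreated *abl-1* KO 0.0188 for *apl-1*, for *abl-1* KO against wt on quercetin -0.0146 for *aph-1*, for quercetin against lutein 0.0188 for *apl-1*.

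For quercetin against untreated wt, leaving out single libraries gave -0.0361 to 0.0538 for *apl-1*, -0.0917 to 0.0932 for *feh-1* and -0.0232 to 0.0533 for *pen-2*. For quercetin against untreated *abl-1* KO, leaving out single libraries gave -0.1231 to 0.0094 for *apl-1*, -0.0403 to 0.0314 for *feh-1*, -0.0032 to 0.057 for *sel-12*, -0.0782 to 0.006 for *hop-1*, -0.0897 to 0.0206 for *aph-1* and -0.0665 to 0.0114 for *aph-2*. For *abl-1* KO against wt untreated, leaving out single libraries gave -0.0057 to 0.1744 for *feh-1*, -0.0378 to 0.0008 for *sel-12*, -0.0012 to 0.083 for *hop-1* and -0.0084 to 0.0681 for *pen-2*. For *abl-1* KO against wt on quercetin, leaving out single libraries gave -0.0221 to 0.1307 for *feh-1*, -0.053 to 0.0072 for *sel-12*, -0.0441 to 0.0505 for *aph-1* and -0.0278 to 0.05 for *aph-2*. For lutein against untreated wt, leaving out single libraries gave -0.0334 to 0.0564 for *apl-1* and -0.0749 to 0.0016 for *pen-2*. For quercetin against lutein, leaving out single libraries gave -0.0251 to 0.0323 for *apl-1*, -0.0324 to 0.0128 for *sel-12*, -0.0043 to 0.0698 for *hop-1* and -0.0409 to 0.0352 for *aph-1*. For the strain difference in the response to quercetin, leaving out single libraries gave -0.102 to 0.083 for *feh-1* and -0.0376 to 0.0226 for *sel-12*.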

Other observations

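The proportions of the gamma-secretase transcripts within a library were also computed, as values with no test. The ratio of *pen-2* to the mean of the presenilins averaged 1.66 ± 0.0915 in *abl-1* KO on quercetin, 1.55 ± 0.122 in untreated *abl-1* KO, 1.499 ± 0.127 in wt on quercetin, 1.46 ± 0.0091 in wt on lutein and 1.53 ± 0.121 in untreated wt (SD, n = 5, 5, 5, 4 and 5). That of *aph-1* averaged 1.33 and 1.34 in *abl-1* KO with and without quercetin, 1.27 and 1.29 in wt on quercetin and lutein, and 1.26 in untreated wt. That of *aph-2* lay between 1.02 and 1.07 in all groups. *feh-1* was at 0.029 of the level of *apl-1* on average, from 0.0179 to 0.0489 over the libraries. In the *abl-1* KO libraries numbered 2 the 6 genes other than *feh-1* lay on average 0.130 (untreated) and 0.131 (quercetin) above their group means on the log2 scale, and in those numbered 5 the mean deviation was -0.099 (untreated) and -0.107 (quercetin).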
